A study of Mus musculus with 6 samples.

Results

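The genes described here are the receptors Egfr, Erbb2 and Erbb3, the ligands Areg, Ereg, Hbegf, Tgfa, Btc and Nrg1, and the receptor inhibitor Errfi1. They were found by matching the RefSeq transcript identifier of each array feature to the gene symbol, which gave 10 features for 9 of the 10 genes, out of 42586 features and 17298 named genes. Egfr was matched by 2 features and Nrg1 by none, so Nrg1 was not analysed here. The features came from 6 single-colour NimbleGen arrays of MC3T3-E1 cells, a line of mouse calvarial pre-osteoblasts, at passages 5 to 12. The undifferentiated group held 3 arrays of cells in alpha MEM with 10% serum. The differentiated group, also of 3 arrays, came from cells grown for 15 days in that medium with ascorbic acid (50 µg/mL) and glycerol-2-phosphate (10 mM) added. Both groups had received 100 nM 1,25(OH)2D3, the active form of vitamin D, for 24 h before RNA was taken. No vehicle-treated arrays were analysed here, so no value below is a response to the hormone. The labels call the samples biological triplicates of 1 cell line.

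Receptors of the EGF family are tyrosine kinases of the cell surface that pair when a ligand binds and pass the signal on through RAS and the ERK kinases. The ligands are made as membrane-anchored precursors, and proteases of the ADAM family cut them free. Egfr binds Areg, Ereg, Hbegf, Tgfa and Btc, Erbb3 binds neuregulins such as Nrg1, and Erbb2 has no known ligand of its own and serves as a partner. In cells of the osteoblast lineage, signalling through Egfr is known to favour proliferation and to restrain differentiation.

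A control made of 6131 random probes marked the background of each array, at 96.3 to 112 on the linear scale, where the median feature read 793 to 835. Across features Pearson's r between arrays was 0.992 to 0.996 within the differentiated group and 0.979 to 0.994 within the undifferentiated group, where replicate 3 stood apart. Between the groups it was 0.958 to 0.978. A number code in the image names differed between the groups. What it stands for is not stated in the sources used here, and it cannot be told apart from differentiation. The labelled cell type was checked against osteoblast markers. Runx2, Sp7, Alpl, Col1a1 and Bglap were above the random probes on all arrays, and the phosphatase gene Alpl rose by 3.70 on the log2 scale (adjusted p = 1.16e-07). Runx2 and Col1a1 differed by 0.09 and 0.07. Col1a1 read 55406 to 62049 in undifferentiated and 62231 to 63237 in differentiated cells. Signals this bright may be near the top of the measurable range, where a rise could be missed. Saturation was not tested. Of 10 osteoblast markers in all, 4 were higher at a limma adjusted p under 0.05, 0 lower and 6 did not pass. Of all named genes 8.47% were higher and 10.8% lower. Ibsp was close to the random probes, at 1.14 times the control in undifferentiated and 1.13 times in differentiated cells. Spp1 differed by -0.32 without passing. The value of Bglap may include its near-identical neighbouring genes.

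Differentiated cells carried less transcript of the ligands Ereg and Areg, of the inhibitor Errfi1 and of 1 of the 2 features of Egfr. Ereg fell 5.07-fold, Areg 2.04-fold, the Egfr feature NM_207655 1.71-fold and Errfi1 1.40-fold. Hbegf and Tgfa differed in the other direction by less than 1 log2 unit and did not pass the test, and Btc was not above the random probes. Of the 10 member features, 4 were lower, 0 higher and 6 did not pass in limma's moderated test at an adjusted p under 0.05, with Benjamini-Hochberg adjustment over all features. Over all 42586 features, 11.7% were lower and 7.97% higher, or 19.6% in all. At an unadjusted p under 0.05, 5 member features were lower and 3 higher, beside 37.0% of all features (18.0% lower and 18.9% higher). Without undifferentiated replicate 3, 5 member features were called lower and 3 higher (Hbegf, Tgfa and Erbb3), while 8820 of all features were called lower and 9871 higher. The groups did not overlap for 7 of the 10, against 40.1% of all features. The median log2 difference of the members was -0.12, beside 0.07 for all features. In RNA from whole cultures, fewer cells expressing a gene and less transcript in each cell cannot be told apart.

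**Figure D1:**
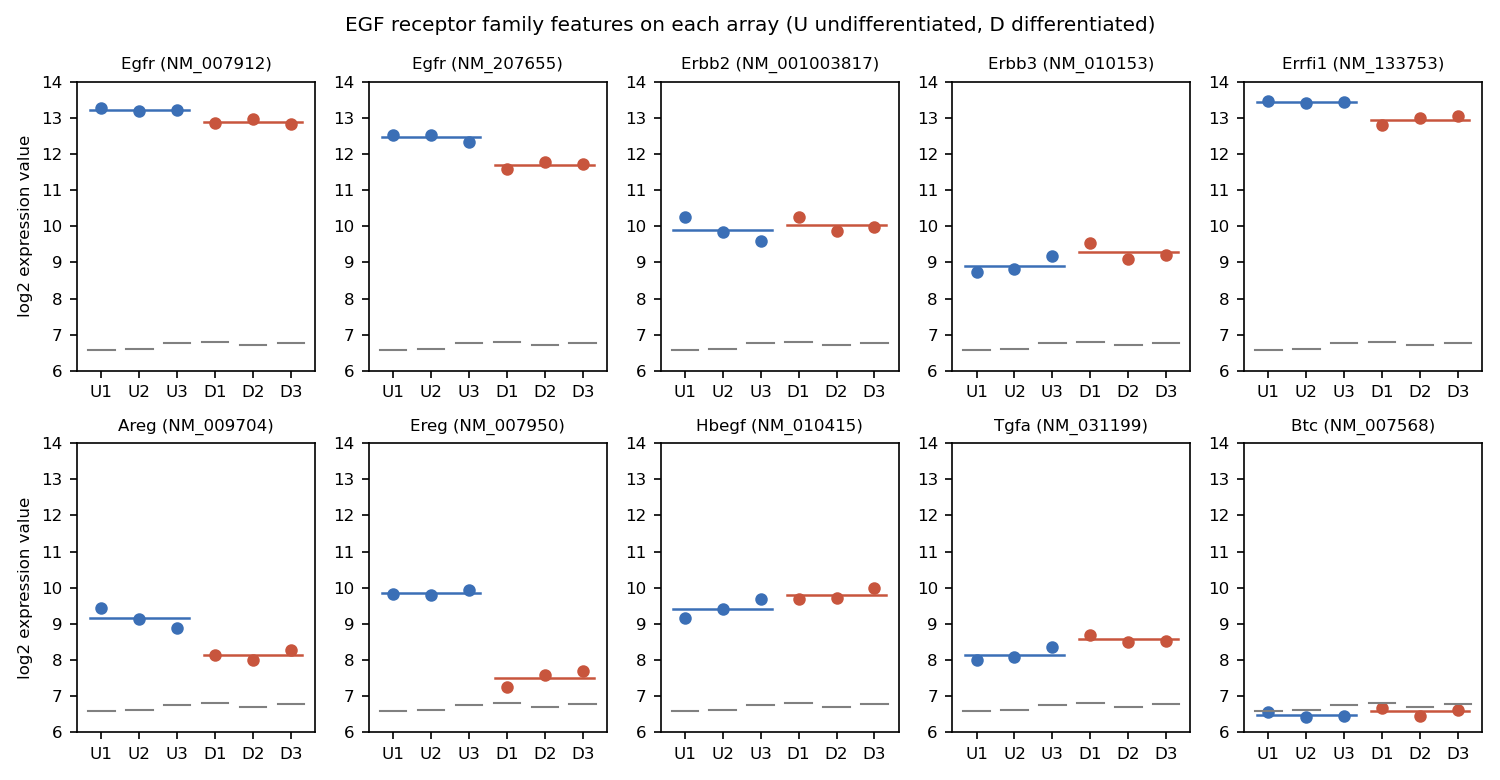
Log2 expression value (vertical axis) of the 10 member features on each array (horizontal axis, U1 to U3 undifferentiated and D1 to D3 differentiated). Coloured lines are group means and grey bars mark the random-probe control of each array. Ereg drops from a mean of 9.86 to 7.51, while Btc lies at or below the grey bars on all 6 arrays.

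Ereg, which encodes epiregulin, a ligand of Egfr that also activates Erbb4, had the largest difference of the member features. Its expression value was 911, 898 and 973 in undifferentiated replicates 1, 2 and 3 and 153, 191 and 209 in the differentiated replicates. The groups were far apart, and the lowest undifferentiated array read several times the highest differentiated one. On the log2 scale Ereg went from 9.86 ± 0.06 to 7.51 ± 0.23 (SD, n = 3 each), a difference of -2.34 (95% interval -2.66 to -2.02; limma adjusted p = 3.78e-06). It held rank 43 among all features ordered from the most lowered, and rank 102 by p. Relative to the random probes of the same array, its level was 9.20 times the control in undifferentiated cells and 1.68 times in differentiated cells, so it remained above that control on all 3 differentiated arrays.

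Areg encodes amphiregulin, another Egfr ligand and a gene known to respond to parathyroid hormone in osteoblasts. It read 699.8, 567 and 476 in undifferentiated replicates 1, 2 and 3 and 281, 256 and 308 in the differentiated replicates. All differentiated arrays lay below all undifferentiated ones, with undifferentiated replicate 3 the nearest to them. The log2 value went from 9.16 ± 0.28 to 8.13 ± 0.13 (SD, n = 3 each), a difference of -1.03 (95% interval -1.39 to -0.68; adjusted p = 0.00182). Areg stood at 5.70 times the random probes in undifferentiated and 2.57 times in differentiated cells. The log2 ratio of Ereg to Areg within an array was 0.69 ± 0.33 in undifferentiated and -0.62 ± 0.24 in differentiated cells (SD, n = 3 each), so the change between groups was unequal for the 2 ligands by -1.31. The groups did not overlap in this ratio (exact permutation test, two-sided p = 0.1, the smallest that 3 against 3 arrays can give).

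The calls of Ereg and Areg held when each array was left out in turn, with an adjusted p of at most 0.000109 for Ereg and 0.0149 for Areg. The array number in the file names begins alike for undifferentiated replicate 3 and the differentiated arrays and otherwise for undifferentiated replicates 1 and 2. Taking that start into the fit compares replicate 3 alone with the differentiated arrays, and this lone array is assumed to vary like the others. The difference was then -2.41 for Ereg (adjusted p = 2.21e-06) and -0.76 for Areg (adjusted p = 0.0112).

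The promoter of Areg is shown because Areg is 1 of the 2 lowered ligand genes and its letters can be set beside those of Errfi1 and Egfr. No promoter window was available for Ereg, the most lowered member, so the comparison leaves it out. It is RefSeq's window of 250 bases before to 50 after the start on the plus strand of chr5:91139349-91139648 (GRCm38.p6). Capitals mark, from left to right, the cAMP response element TGACGTCA, the GC box GGGCGG, the TATA box TATAAA and a further GC box on the other strand, CCGCCC.
Areg promoter: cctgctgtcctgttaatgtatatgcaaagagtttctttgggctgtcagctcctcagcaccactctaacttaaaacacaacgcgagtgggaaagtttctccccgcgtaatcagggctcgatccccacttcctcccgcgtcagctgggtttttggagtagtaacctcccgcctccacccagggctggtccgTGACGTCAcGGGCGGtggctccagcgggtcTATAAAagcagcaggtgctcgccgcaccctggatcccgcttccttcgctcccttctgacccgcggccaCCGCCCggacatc
Both strands were searched for 5 motifs. In the Areg window TGACGTCA began 61 bases and TATAAA 31 bases before the start. TGACGTCA is the letter pattern known to be bound by CREB, and it was found in 1.79% of all 32851 promoter windows of this length, whereas TATAAA was found in 13.6% and GGGCGG in 35.7%. The AP-1 pattern TGANTCA (7.81% of windows) and the AGGTCA element of nuclear receptors (16.3%) were not among the letters of this window. These matches describe sequence only.

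**Figure D2:**
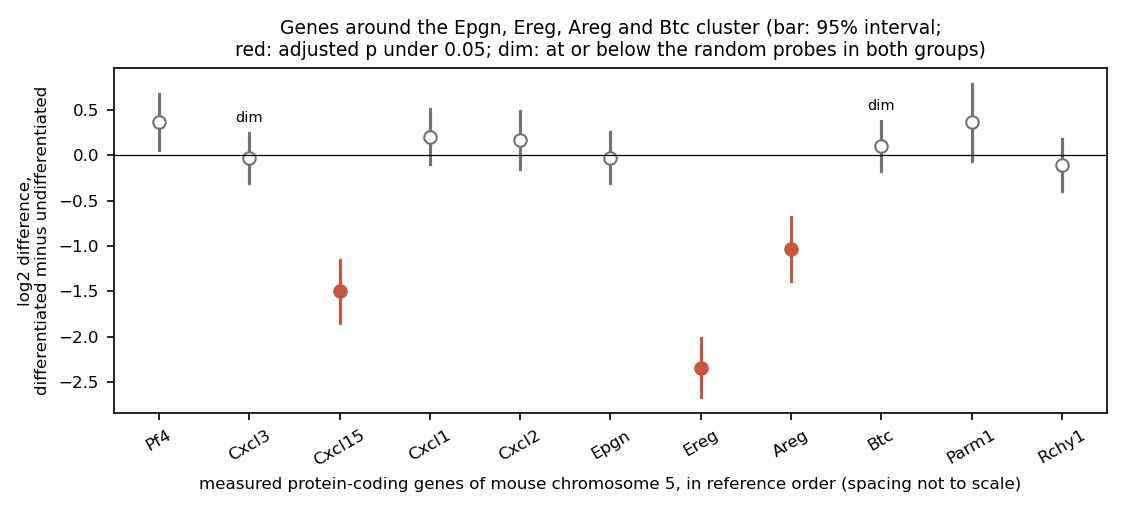
Log2 difference, differentiated minus undifferentiated (vertical axis), of the measured protein-coding genes around the ligand cluster of mouse chromosome 5, in their reference order (horizontal axis, spacing not to scale), with 95% intervals. Ereg at -2.34 and Areg at -1.03 lie below their neighbour Epgn at -0.03, and Cxcl15 at -1.50 is lower as well. Btc and Cxcl3 were not above the random probes, and their points are no measured differences.

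Ereg and Areg are direct neighbours on chromosome 5, between Epgn and Btc, which encode the ligands epigen and betacellulin. The surrounding genes were looked at after the values of Ereg and Areg were known. Epgn read 216, 189 and 205 in undifferentiated and 208, 202 and 188 in differentiated replicates, with overlapping groups and a log2 difference of -0.03 (95% interval -0.31 to 0.25; adjusted p = 0.881). Btc read 93.8, 86.1 and 88.2 in undifferentiated and 102, 88.3 and 97.5 in differentiated replicates. Each of these values lay at or below the random probes of its array, so no fold is given for Btc. More genes were taken on the Epgn side than on the Btc side. Next to Epgn lies Mthfd2l, which was matched by no feature, followed by chemokine genes. Among these Cxcl15 fell from 655, 569 and 615 in undifferentiated to 209, 266 and 182 in differentiated replicates (log2 difference -1.50; adjusted p = 0.00015). Cxcl1 and Cxcl2, which encode neutrophil-attracting chemokines, differed by 0.20 (adjusted p = 0.306) and 0.17 (adjusted p = 0.427). Pf4 differed by 0.36 without overlap of the groups (limma adjusted p = 0.0878), and Cxcl3 was at or below the random probes on all arrays. On the Btc side Parm1 and Rchy1 differed by 0.36 (adjusted p = 0.194) and -0.11 (adjusted p = 0.573). The gene after them, Odaph, was matched by no feature.

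Hbegf encodes heparin-binding EGF-like growth factor, a ligand of Egfr and Erbb4. It read 577, 687 and 817 in undifferentiated replicates 1, 2 and 3 and 825, 838 and 1023 in the differentiated replicates. The groups did not overlap, but undifferentiated replicate 3 came within a few units of the lowest differentiated array. The log2 difference was 0.38 (95% interval 0.02 to 0.73; adjusted p = 0.117). Tgfa, the transforming growth factor alpha gene, read 254, 273 and 326 in undifferentiated and 410.5, 364 and 369 in differentiated replicates. Again the groups did not overlap and undifferentiated replicate 3 was the highest of its group. The log2 difference was 0.43 (95% interval 0.12 to 0.74; adjusted p = 0.0529). Without undifferentiated replicate 3 both genes passed, with a difference of 0.50 for Hbegf (adjusted p = 0.0129) and 0.53 for Tgfa (adjusted p = 0.00498). With the array number start in the fit they did not, at 0.12 and 0.22, and over 14 alternatives their adjusted p ranged from 0.0061 to 0.724 and from 0.00166 to 0.414.

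No other ligand of the family outside the member list passed in the reported fit. Egf, the founding ligand, read 512 to 521 in undifferentiated and 529 to 581 in differentiated cells (log2 difference 0.08; 95% interval -0.19 to 0.35; adjusted p = 0.658). Nrg4, a neuregulin that binds Erbb4, read 355, 508 and 616 in undifferentiated and 662, 694 and 698 in differentiated replicates (log2 difference 0.51; 95% interval 0.10 to 0.92; adjusted p = 0.0768). As with Hbegf and Tgfa, undifferentiated replicate 3 was the highest of its group for Nrg4. Nrg4 passed with array weights (0.49; adjusted p = 0.00269) and without undifferentiated replicate 3 (0.69; adjusted p = 0.00325), and its difference was 0.29 without undifferentiated replicate 1 (adjusted p = 0.207) and 0.15 with the array number covariate (adjusted p = 0.681). Nrg3 read 121 to 125.2 and 126 to 139, close to the random probes. Over the 9 measured ligand genes, 2 were lower, 0 higher and 7 did not pass, Btc among them without a signal above the random probes. Of all named genes 10.8% were lower and 8.47% higher. At an unadjusted p under 0.05, 2 of the ligand genes were lower and 3 higher, beside 16.7% and 19.9% of all named genes.

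**Figure D3:**
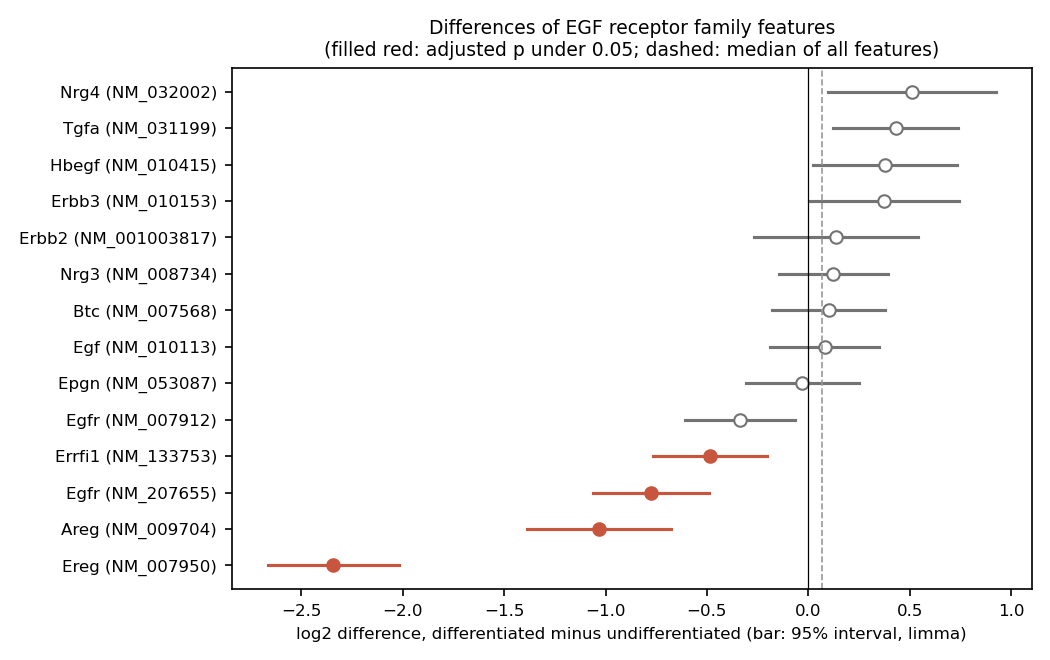
Log2 difference, differentiated minus undifferentiated (horizontal axis), of each member feature and of the ligand genes Egf, Epgn, Nrg3 and Nrg4, with 95% intervals from limma. The 4 filled features passed the test and all lie below 0, from -0.49 for Errfi1 to -2.34 for Ereg, Btc was not above the random probes, and the dashed line is the median of all features at 0.07.

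Among the receptors, Egfr was well above the random probes on all arrays, and its 2 features differed in their calls. The feature NM_007912 read 9852, 9359 and 9454 in undifferentiated replicates and 7409, 8048 and 7228 in differentiated replicates. All differentiated arrays were lower, by a small margin beside the level, with a log2 difference of -0.34 (95% interval -0.61 to -0.07; adjusted p = 0.0745). It passed in 3 of 14 alternatives, namely equal array medians, array weights and without undifferentiated replicate 3, with adjusted p from 0.0147 to 0.23 over all 14. The feature NM_207655, which stands for a second RefSeq transcript of the gene, read 5912, 5898 and 5182 in undifferentiated replicates and 3052, 3512 and 3367 in differentiated replicates. Here the groups were well apart, and the log2 difference was -0.77 (95% interval -1.06 to -0.49; adjusted p = 0.00269). It passed in every alternative that tested it. The log2 ratio of NM_207655 to NM_007912 within an array was -0.76 ± 0.10 in undifferentiated and -1.19 ± 0.09 in differentiated cells (SD, n = 3 each), without overlap (exact permutation test, two-sided p = 0.1, the smallest possible here). Probe sequences were not used here, so whether the 2 features share part of the transcript is not known.

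Erbb2 read 1229, 919.7 and 770.2 in undifferentiated and 1221, 943 and 1004 in differentiated replicates. The groups overlapped almost entirely, with a log2 difference of 0.14 (95% interval -0.27 to 0.54; adjusted p = 0.612). Erbb3, whose kinase is weak and which signals through its partners, read 422, 452 and 576 in undifferentiated and 743, 542 and 591 in differentiated replicates. Undifferentiated replicate 3 lay above differentiated replicate 2, so the groups overlapped. The log2 difference was 0.37 (95% interval 0.00 to 0.74; adjusted p = 0.134), and it passed with array weights (adjusted p = 0.0111) and without undifferentiated replicate 3 (0.50; adjusted p = 0.015). It was 0.24 without differentiated replicate 1 (adjusted p = 0.403) and 0.10 with the array number covariate (adjusted p = 0.782). No feature was matched to Erbb4, which was therefore not analysed here.

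Errfi1 encodes MIG6, a cytoplasmic inhibitor that binds the Egfr kinase and is itself known to be induced by growth factors. It read 11364, 10753 and 10985 in undifferentiated replicates and 7108, 8183 and 8404 in differentiated replicates. The groups did not overlap, and the undifferentiated arrays were close together. The log2 value went from 13.43 ± 0.04 to 12.94 ± 0.13 (SD, n = 3 each), a difference of -0.49 (95% interval -0.77 to -0.20; adjusted p = 0.0249). The call ended in 6 of 14 alternatives, namely without each single array except undifferentiated replicate 3 and with the array number covariate, with adjusted p from 0.0026 to 0.107 over all 14, while the difference stayed between -0.54 and -0.40. The within-array ratio of Errfi1 to Egfr NM_007912 overlapped between groups (log2 0.21 ± 0.01 against 0.06 ± 0.14, SD, n = 3 each; exact permutation test, two-sided p = 0.4). The ratio to the other Egfr feature, NM_207655, was not taken. That feature had a larger log2 difference than Errfi1, at -0.77, so the overlap holds for NM_007912 only.

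The promoters of Errfi1 and Egfr are shown for comparison with that of Areg, since each of these genes had a lowered feature. For Errfi1 RefSeq gives 2 starts, and the window printed is that of the downstream start, on the plus strand of chr4:150854820-150855119 (GRCm38.p6). The Egfr window is on the plus strand of chr11:16751953-16752252 (GRCm38.p6). Capitals mark matches to the same 5 motifs on either strand, which are CCGCCC, TGACGTCA and TATAAA in Errfi1 and CCGCCC in Egfr.
Errfi1 promoter: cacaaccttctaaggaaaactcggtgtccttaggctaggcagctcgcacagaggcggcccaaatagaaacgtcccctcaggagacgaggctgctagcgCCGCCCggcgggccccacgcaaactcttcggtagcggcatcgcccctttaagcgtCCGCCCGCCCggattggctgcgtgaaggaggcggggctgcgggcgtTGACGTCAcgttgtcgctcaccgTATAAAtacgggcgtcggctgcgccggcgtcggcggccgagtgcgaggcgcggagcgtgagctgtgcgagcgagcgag
Egfr promoter: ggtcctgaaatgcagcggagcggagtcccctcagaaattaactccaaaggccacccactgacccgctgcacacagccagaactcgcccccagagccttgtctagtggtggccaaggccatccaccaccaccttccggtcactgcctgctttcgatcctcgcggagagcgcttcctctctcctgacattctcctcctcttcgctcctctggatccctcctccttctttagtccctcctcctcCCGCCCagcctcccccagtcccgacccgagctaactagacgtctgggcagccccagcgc
As in the Areg window, TGACGTCA in Errfi1 lay shortly upstream of TATAAA, beginning 51 and 28 bases before the start. The window of the upstream Errfi1 start and those of Egfr, Tgfa, Btc and Erbb2 held no TGACGTCA. Of the 5 motifs, the upstream Errfi1 window, which is not printed, held only AGGTCA, beginning 34 bases after the start. AGGTCA was found in 16.3% of all windows. Ereg and Erbb3 had no window, and that of Hbegf is not reported here. GC content was 66.7% in the Errfi1 window, 59.3% in that of Areg and 62.3% in that of Egfr, against a median of 52.7% over all windows.

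The other genes of the pathway were grouped by role. In these lists a gene is represented by its brightest feature, and 3341 of 17298 named genes (19.3%) passed, 8.47% higher and 10.8% lower, with a median log2 difference of 0.08. Of 13 genes that shed ligands or move them to the surface, 4 fell, 1 rose and 8 did not pass. Adam17 and Adam10, the main proteases that release EGF receptor ligands, fell by 0.45 (adjusted p = 0.0296) and by 0.56 (adjusted p = 0.0438) on the log2 scale. Rhbdf2, which escorts the Adam17 protease to the cell surface, rose by 0.59 (adjusted p = 0.0184). Adam9, another membrane metalloproteinase, fell by 0.69 (adjusted p = 0.0312), and the vesicle protein gene Tmed10 fell by 0.65 (adjusted p = 0.0129). The list's median was 0.07, near that of all genes.

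Of 18 genes of receptor inhibition and turnover, 5 fell, Errfi1 among them, 2 rose and 11 did not pass. The list's median was -0.36. The receptor-type phosphatase gene Ptprj fell by 1.45 (adjusted p = 0.000583), the adaptor gene Grb10 fell by 0.91 (adjusted p = 0.00536) and Cbl, the ubiquitin ligase that marks activated Egfr for degradation, fell by 0.85 (adjusted p = 0.00476). Lrig3, from a family of leucine-rich membrane proteins that modulate these receptors, rose by 0.75 (adjusted p = 0.00639). Its relative Lrig1, which restrains Egfr, differed by -0.40 without passing (adjusted p = 0.0986).

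Of 17 adaptor, RAS and ERK kinase genes, 3 fell, 0 rose in limma's test and 14 did not pass. At an unadjusted p under 0.05, 4 of these genes were lower and 2 higher, beside 16.7% and 19.9% of all named genes. The kinase gene Rps6ka3, which acts below the ERK kinases, fell by 0.94 (adjusted p = 0.00116). Of 12 genes of ERK feedback inhibitors, 2 rose, 3 fell and 7 did not pass. Spry1 and Spry4, which encode inhibitors of receptor kinase signalling, rose by 1.17 (adjusted p = 0.000628) and by 0.98 (adjusted p = 0.000975), while the ERK phosphatase gene Dusp6 fell by 0.45 (adjusted p = 0.0345) and Spred1 fell by 0.46 (adjusted p = 0.0451).

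The list of genes that growth factors switch on early had 26 measured members. Among them 9 rose and 5 fell, while 12 missed the threshold, and the list's median was 0.07. Over all named genes the shares that rose and fell were 8.47% and 10.8%. Egr1, a zinc finger transcription factor gene, read 2176, 2436 and 2666 in undifferentiated and 5201, 5073 and 5872 in differentiated replicates (log2 difference 1.15; adjusted p = 0.000322). The nuclear receptor gene Nr4a1 rose by 1.19 (adjusted p = 0.000184). Fosl1, an AP-1 subunit gene, read 4009, 5562 and 2772 in undifferentiated and 1212, 1033 and 1401 in differentiated replicates (log2 difference -1.71; adjusted p = 0.000697). The prostaglandin synthase gene Ptgs2 fell by 1.60 (adjusted p = 0.000239). Of the 19 genes outside the member list that the rule named across these lists, 7 lost their call in at least 1 of 14 alternatives, among them Adam9, Adam10, Rhbdf2, Tmed10, Spred1 and Dusp6. Adam17 and Lrig1 were named after their values were seen.

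**Figure D4:**
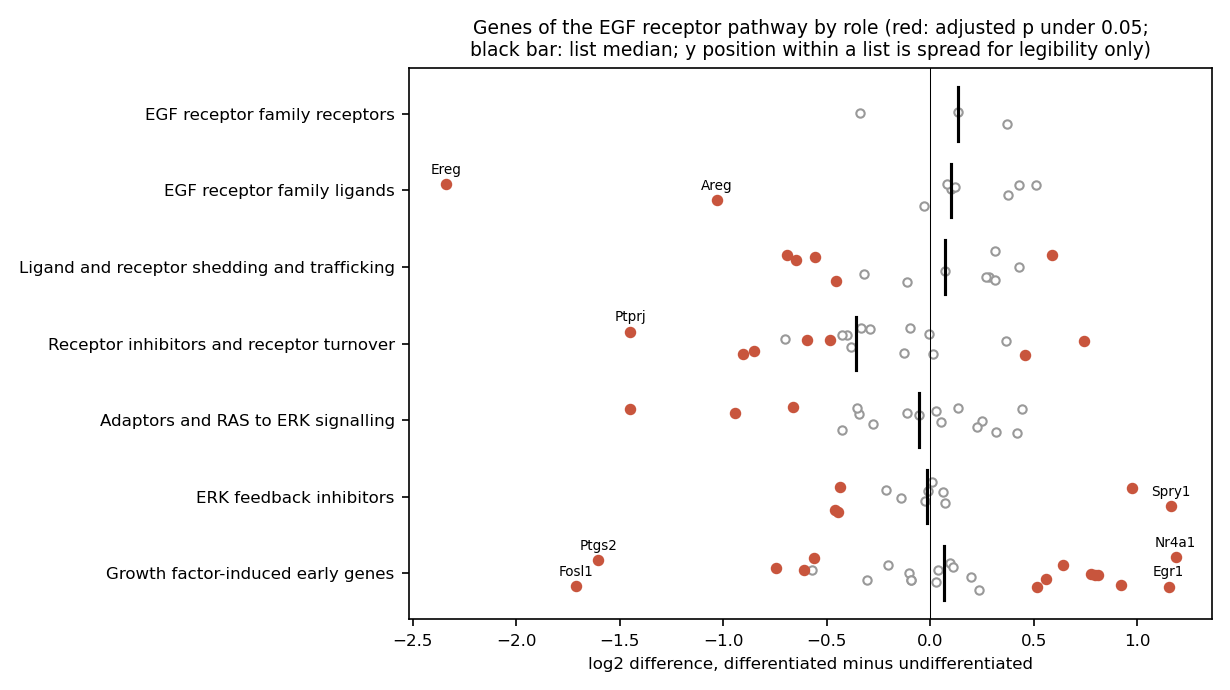
Log2 difference, differentiated minus undifferentiated (horizontal axis), of every measured gene in 7 lists of the EGF receptor pathway, 1 point per gene, with list medians as black bars. Ereg at -2.34 is the leftmost point, followed by Fosl1 at -1.71 and Ptgs2 at -1.60, while Nr4a1 at 1.19, Spry1 at 1.17 and Egr1 at 1.15 lie farthest right.

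Markers of other cell types were read against the 8.47% of all named genes that were higher and the 10.8% that were lower. Of 8 epithelial markers, 2 rose (Cdh1 and Krt14) and none fell, and their summed expression value was 3714 to 5505 in undifferentiated and 5721 to 6246 in differentiated cells. For 8 adipocyte markers, of which 3 rose, the sum was 5178 to 5828 and 9486 to 10060.4. Most of that rise came from Cebpa, a transcription factor gene, which read 2643, 2065 and 2128 in undifferentiated and 6050, 6047 and 6118 in differentiated replicates. Pparg and Cfd were called higher as well, by 0.72 (limma adjusted p = 0.0359) and by 0.46 (adjusted p = 0.0376). The fat cell genes Adipoq, Lpl, Plin1 and Cidec did not pass, nor did Fabp4, which differed by -0.54 (adjusted p = 0.0586). At an unadjusted p under 0.05, 6 of the 8 were higher and 1 lower, beside 19.9% and 16.7% of all named genes. Of 8 chondrocyte markers 2 rose and 1 fell, with sums of 7415 to 8129 and 6064 to 7321. Called higher were 2 of 7 muscle, 1 of 8 endothelial and 1 of 6 macrophage markers. Their sums were 3985 to 5187 and 5748 to 6244, 3523 to 3817 and 4017 to 4337, and 1571 to 1937 and 2047 to 2260.0. Hapln1 among the chondrocyte and Cdh5 among the endothelial markers did not exceed the random probes on any array. The part of these cell types in the results was not tested.

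By likeness to Ereg, the called member with the largest difference, 5 named genes ranked first, with Pearson's r of their log2 values over the 6 arrays as the measure. They were Krr1 (r = 0.999), Fam91a1 (0.999), Tasp1 (0.998), Vegfd (0.998) and Rbbp5 (0.997). Tasp1 was at or below the random probes on all 3 differentiated arrays, so its values there are only bounds. The 6 points fall into the 2 groups, so r mostly reflects the group difference and is given as a description. Vegfd, a growth factor gene of lymphatic vessels, differed by -1.90, Krr1, a gene of ribosome assembly, by -1.02, and Rbbp5, a subunit gene of histone methyltransferases, by -0.29.

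**Figure D5:**
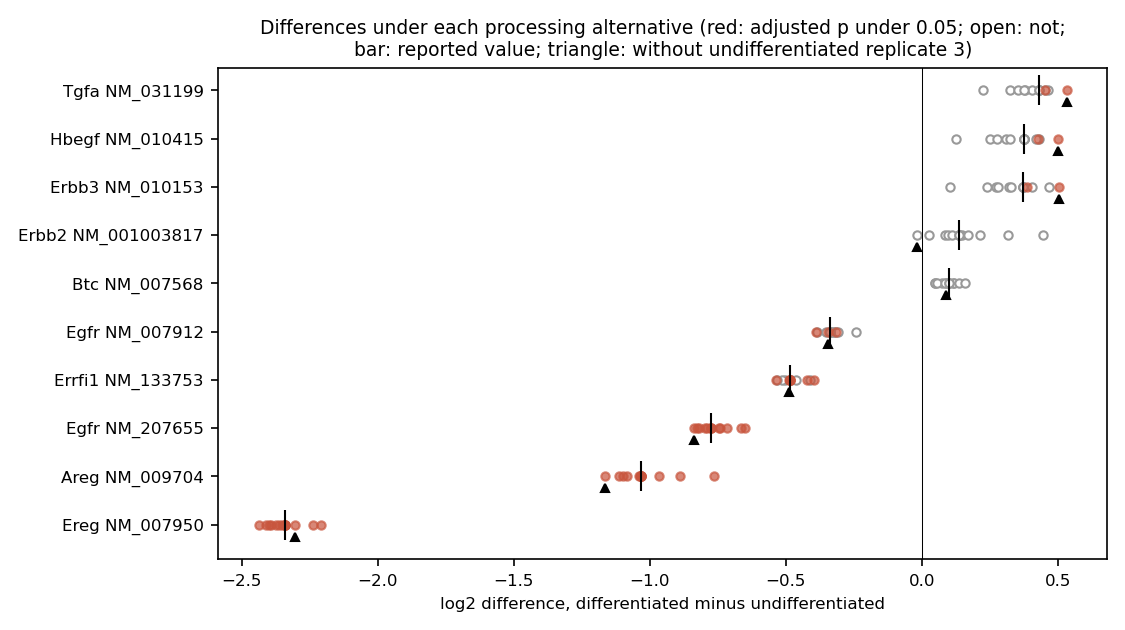
Log2 difference, differentiated minus undifferentiated (horizontal axis), of each member feature under every processing alternative, filled where the adjusted p was under 0.05, with the reported value as a vertical bar and the value without undifferentiated replicate 3 as a triangle. Ereg stays between -2.44 and -2.21 and Areg between -1.17 and -0.76, all filled, whereas Erbb2 spans 0.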

How the data were processed

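RNA of 6 cultures was hybridised to 6 single-colour arrays, and groups were taken from the source names in the labels. The authors deposited 1 intensity for each feature on a linear scale, and RMA, which corrects background, normalizes between arrays and summarises probes, is named in the submitters' processing notes. Its version and the genome build are not stated there. Each array held 42586 features, 42566 of them with 9 probes, and 1 random-probe control that was kept out of the tests. A single symbol was found for 17849 features (41.9%) through RefSeq transcript identifiers in a table of assembly GRCm38.p6, used for names, gene order and promoter sequences.

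Log2 was taken without further normalization. Differences are differentiated minus undifferentiated, tested two-sided on the whole table by lmFit and eBayes of limma 3.58.1 (R 4.3.3), and p-values were adjusted over all features by the Benjamini-Hochberg method. Replicates are the submitters' biological triplicates. Precision is limited by 3 arrays per group. A feature counts as not above background where all 3 arrays of a group had it at or below their random-probe control. On simulated arrays of 42586 features, 50 features were changed at each size. At a log2 size of 0.5 the test recovered 2%, at 1 it recovered 50%, at 2 it recovered 98% and at 3 it recovered 100%, and there were 5 false calls. The share of changed features was far below the 19.6% called in the data, and the Benjamini-Hochberg adjustment depends on that share. These rates therefore describe the simulated setting and not the power or the false calls of the real comparison.

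The members and lists were chosen with earlier results of these data known. The named genes were all members, up to 4 called genes per pathway list with the largest difference, 5 osteoblast markers and the 5 genes most like the most changed member. Further genes of the marker lists are named outside this rule. Some genes of the adaptor and ERK kinase list are not reported here by name. Alternatives were quantile normalization, equal array medians, a filter on dim features, array weights, a block for the replicate number, a covariate for the start of the array number, leaving out each array, adjustment over named genes only and the deposited table of the series. That table held the same values (largest difference 0) and 0 columns of other series. Array weights were estimated gene by gene, because the default estimate did not converge.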

Additional observations from a re-analysis of the deposited data

How the results depend on the processing

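The alternatives changed no direction of Ereg, Areg, Errfi1, Hbegf, Tgfa, Erbb3 or either Egfr feature. Without undifferentiated replicate 3 the difference of Erbb2 turned to -0.019, and it reached 0.318 without undifferentiated replicate 1 and 0.446 with the array number covariate. Epgn turned to 0.022 with array weights, to 0.015 without undifferentiated replicate 1 and to 0.013 without differentiated replicate 3, and was -0.080 without undifferentiated replicate 2. Egf turned to -0.014 with quantile normalization and Runx2 to -0.029 with the array number covariate, and none of these values was called. Of member features, 0 were called higher in 12 of 14 alternatives and 3 with array weights or without undifferentiated replicate 3 (Hbegf, Tgfa and Erbb3), so leaving out single arrays gave 0 to 3, and 3 to 5 called lower. Over all features, leaving out single arrays gave 1039 to 9871 called higher and 2332 to 8820 called lower, with the highest counts without undifferentiated replicate 3. Array weights, which ran from 0.237 for undifferentiated replicate 3 to 3.47 for replicate 2, gave 11954 and 9794. Of the 98 pathway genes, 14 were called higher and 22 lower in the reported fit, beside 8.47% and 10.8% of all named genes. The counts were 25 and 34 with array weights and 9 to 22 and 10 to 33 without single arrays, and quantile normalization gave 14 lower. Shares of all named genes under these alternatives are not given here. The cause of the shifts in these counts was not tested. The replicate number as a block gave 0 member features higher and 4 lower and changed no call of a member. The numbers are not taken to pair the arrays, since they do not state a shared culture or day. The deviations of same-numbered arrays correlated at 0.01, 0.21 and 0.06, and 0.21 was the highest value of any pair. Undifferentiated replicate 1 correlated best with differentiated replicate 2, at 0.05, and undifferentiated replicate 3 with differentiated replicate 1, at 0.08. These values do not settle whether the numbers pair the arrays. The array signal over the random probes limits what can be said of Btc and Nrg3.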
